A study of Mus musculus with 2 samples.

Results

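The CCN proteins, the thrombospondins and periostin were followed in RNA sequencing of mouse embryonic fibroblasts (MEFs), connective tissue cells taken from embryos and grown in a dish. The group was defined by name as Ccn1, Ccn2, Ccn3, Ccn4, Ccn5, Thbs1, Thbs2, Thbs3, Thbs4 and Postn, and all 10 genes were found among the 17260 of the deposited count table. They were put together as matricellular genes that respond to TGF-beta and YAP, and were proposed with the values of this same comparison known. Their levels and ratios are therefore a description.

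There was 1 library of wild-type (WT) cells and 1 of cells labelled Ahi1-/-. Both were labelled C57BL/6, came from embryos at day 13.5, and were grown in DMEM with 10% fetal bovine serum. The labels name no treatment and give neither the allele, the embryos behind a culture nor the passage. Columns headed CON and EXP were read as control (WT) and experimental (Ahi1-/-), a reading the files do not spell out and on which every direction rests. With 1 library per genotype there was no test and no p-value, and intervals cover counting error only. The libraries held 19067504 and 20820756 expected counts. Ahi1, the gene named in the label, had 410 counts in WT and 370 in the other library, so its transcript level did not check the label and the second is called the library labelled Ahi1-/-. Fibroblast markers were present in both libraries, with all 10 listed genes detected. In the library labelled Ahi1-/-, 8 of them were 2-fold or more above WT and 0 below, with 50 or more counts in the higher library. By these criteria 16.0% of 12075 genes were higher and 10.3% lower. The marker lists were written with earlier results of these data known, so nothing is read from that difference. Vim, the most even of the listed fibroblast genes, was at 4546 and 4710 TPM (a level scaled to transcript length and library size). Furthest apart were Thy1 (258 and 20631 counts), Lum (71 and 3284), Pdgfra (795 and 6265) and Col1a2 (29308 and 193937).

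Matricellular proteins are secreted into the extracellular matrix but act mainly as signals there, binding growth factors, proteases and cell surface receptors. CCN proteins are built from modules that bind integrins, proteoglycans and growth factors. Thrombospondins are multimeric calcium-binding glycoproteins, and thrombospondin 1 can release TGF-beta from its latent complex. Periostin binds collagen and fibronectin and helps recruit the enzymes that cross-link collagen. In fibroblasts several of these genes are induced by TGF-beta, through Smad proteins, or by the coactivators YAP and TAZ, which bind DNA through TEAD factors.

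Of the 10 genes, 9 were higher by 2-fold or more in the library labelled Ahi1-/- with 50 or more counts in whichever library was higher, 0 were 2-fold lower, and Thbs3 lay within 2-fold. By the same criteria 16.0% of 12075 genes were higher and 10.3% lower. The genes were chosen from this contrast, so nothing is read from that difference. The median log2 ratio of scaled counts (library labelled Ahi1-/- over WT) was 2.53, with a range of 0.38 to 4.66, beside -0.04 over the 12075 genes. Summed over the 10 genes, the level was 676 TPM in WT against 9044 TPM in the library labelled Ahi1-/-, or 13.4-fold more. These sums were 0.0676% and 0.904% of all TPM. Without Thbs1 the sums were 510 and 5125 TPM, 10.05-fold apart.

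**Figure D1:**
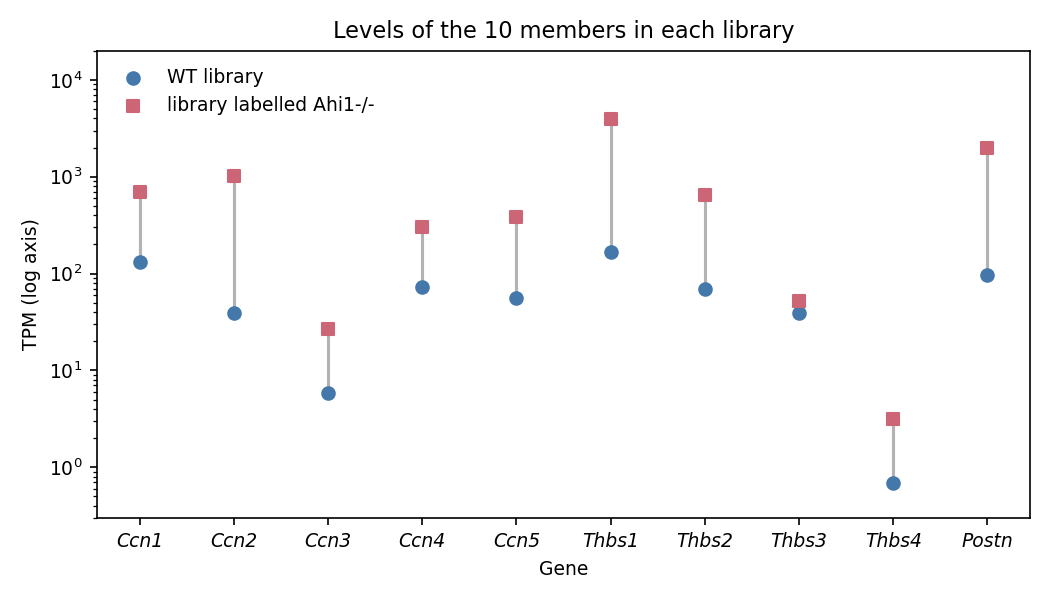
Level of each of the 10 genes in TPM (vertical log axis) in the WT library (circles) and the library labelled Ahi1-/- (squares), 1 library each and so without error bars. The squares lie above the circles for all 10 genes, narrowly for Thbs3 (38.9 and 52.7 TPM) and most widely for Ccn2 (39.4 and 1026 TPM).

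Among the CCN genes, Ccn2 stood furthest apart. Ccn2 (Entrez gene 14219, chromosome 10), connective tissue growth factor, is a much used readout of TGF-beta and YAP activity. It had 868 counts in WT against 22097 in the library labelled Ahi1-/-, which are 39.4 and 1026 TPM. The scaled counts were 25.2-fold apart, a log2 ratio of 4.66 (95% counting interval 4.56 to 4.76). Ccn2 was the 4276th most abundant gene by TPM in WT and the 151st in the other library.

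Ccn1 (Entrez gene 16007, chromosome 3) encodes the close relative CYR61, an immediate early, integrin-binding protein and another standard YAP target. Ccn1 had 2450 counts in WT against 12446 in the library labelled Ahi1-/-, or 132 and 688 TPM. Its log2 ratio was 2.33 (2.27 to 2.39), a 5.03-fold difference. Ccn1 was thus the more abundant of the pair in WT, with Ccn1 over Ccn2 at 3.36 on the TPM scale, and the less abundant in the library labelled Ahi1-/-, where the same quotient was 0.670.

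Ccn5 and Ccn4 are also known as WISP2 and WISP1, after their response to Wnt1. The CCN5 protein lacks the C-terminal cysteine knot module of its relatives. Ccn5 (Entrez gene 22403, chromosome 2) had 894 and 5966 counts, 56.2 TPM in WT against 386 TPM in the library labelled Ahi1-/-. Its log2 ratio was 2.73 (2.62 to 2.83), or 6.61-fold. Ccn4 (Entrez gene 22402, chromosome 15) had 3312 and 13786 counts, 72.1 and 305 TPM, with a log2 ratio of 2.04 (1.99 to 2.10). These genes also exchanged places, with Ccn4 over Ccn5 at 1.28 in WT and 0.791 in the other library on the TPM scale.

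Ccn3 (Entrez gene 18133, chromosome 15), also called NOV, is often reported to oppose CCN2. It was the least abundant CCN gene of the list in both libraries. Ccn3 had 128 counts in WT against 574 in the library labelled Ahi1-/-, after rounding of fractional expected counts, and 5.87 and 26.9 TPM. The 4.44-fold difference gave a log2 ratio of 2.15 (1.87 to 2.44). Ccn6, the remaining CCN gene and not on the list, had 10 and 7 counts (log2 ratio -0.53, interval -2.16 to 1.01), too few to show a difference.

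The make-up of the CCN transcripts differed between the libraries. Summed over Ccn1 to Ccn5 the level was 306 TPM in WT against 2432 TPM in the library labelled Ahi1-/-, 7.96-fold more. Ccn1 held the largest share in WT, 43.2%, and Ccn2 held the largest in the other library, 42.2%. The share of Ccn2 in WT was 12.9% and that of Ccn1 in the library labelled Ahi1-/- was 28.3%. Ccn4 had 23.6% and 12.6%, Ccn5 18.4% and 15.9%, and Ccn3 1.92% and 1.10%. Shares within a library do not depend on the scaling between libraries. On the count scale, which favours long transcripts, Ccn4 was the largest in WT at 43.3% and Ccn2 remained the largest in the library labelled Ahi1-/- at 40.3%.

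The thrombospondins that form trimers, Thbs1 and Thbs2, had the largest ratios of the 4 on the list. Thbs1 (Entrez gene 21825, chromosome 2) encodes an inhibitor of angiogenesis that binds CD36 and CD47 on cells. It had 9024 counts in WT against 207779 in the library labelled Ahi1-/-, which are 166 and 3919 TPM. The log2 ratio was 4.51 (4.48 to 4.54). Thbs1 was the most abundant gene of the list by TPM in both libraries. It ranked 925th of all genes in WT but 19th in the library labelled Ahi1-/-, where it took 0.998% of the counts (Wilson 95% interval 0.994% to 1.002%) against 0.0473% in WT (0.0464% to 0.0483%).

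Thbs2 (Entrez gene 21826, chromosome 17) shares the domain order of Thbs1 but is not known to activate TGF-beta. Thbs2 had 3805 and 35032 counts, 69.2 TPM in WT against 652 TPM in the library labelled Ahi1-/-. Its log2 ratio was 3.19 (3.14 to 3.24), or 9.12-fold. Genes of chromosome 17 had a median log2 ratio of -0.32 over 603 genes with at least 50 counts, so Thbs2 lay 3.51 above its chromosome. The quotient of Thbs1 over Thbs2 on the TPM scale was 2.40 in WT and 6.01 in the other library.

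Thbs3 and Thbs4 belong to the thrombospondins that form pentamers. Thbs3 (Entrez gene 21827, chromosome 3) had 1141 counts in WT against 1501 in the library labelled Ahi1-/-, 38.9 and 52.7 TPM. The 1.30-fold difference was a log2 ratio of 0.38, and its counting interval (0.27 to 0.50) left out 0 and reached neither 2-fold nor the ratio of any other gene of the list. Of the 12075 genes, 29.8% had a higher ratio than Thbs3. Thbs4 (Entrez gene 21828, chromosome 13), a gene of tendon and muscle attachments, was the rarest of the list with 20 and 91 counts, 0.680 and 3.16 TPM. Its log2 ratio was 2.17 with a wide interval of 1.46 to 2.95.

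The fifth thrombospondin, Comp, was not on the list and went the other way. COMP is an abundant protein of cartilage. Comp had 655 counts in WT against 27 in the library labelled Ahi1-/-, 24.5-fold lower (log2 ratio -4.61, interval -5.23 to -4.06). Cartilage markers moved with it, and 8 of 10 listed genes (Comp included) were at least 2-fold lower and 0 higher, with Col2a1 at 851 and 35.2 TPM. Of 12075 genes 10.3% were lower and 16.0% higher. As this list too was written with earlier results known, nothing is read from that difference. The summed level of the cartilage markers was 1077 TPM in WT and 122 TPM in the other library, and 0 of them were at 0 counts. Their part in the value of Comp was not tested. In bulk RNA, fewer cells of a type and less RNA per cell cannot be told apart.

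By TPM, Thbs1 held 60.4% of the Thbs1 to Thbs4 transcripts in WT but 84.7% in the library labelled Ahi1-/-. Thbs2 held 25.2% and 14.1%, Thbs3 14.1% and 1.14%, and Thbs4 0.247% and 0.0683%. On the count scale the shares of Thbs1 were 64.5% and 85.01%, those of Thbs2 27.2% and 14.3%, those of Thbs3 8.16% and 0.614%, and those of Thbs4 0.143% and 0.0372%. The sum of these transcripts was 275 TPM in WT and 4627 TPM in the other library, 16.8-fold apart.

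**Figure D2:**
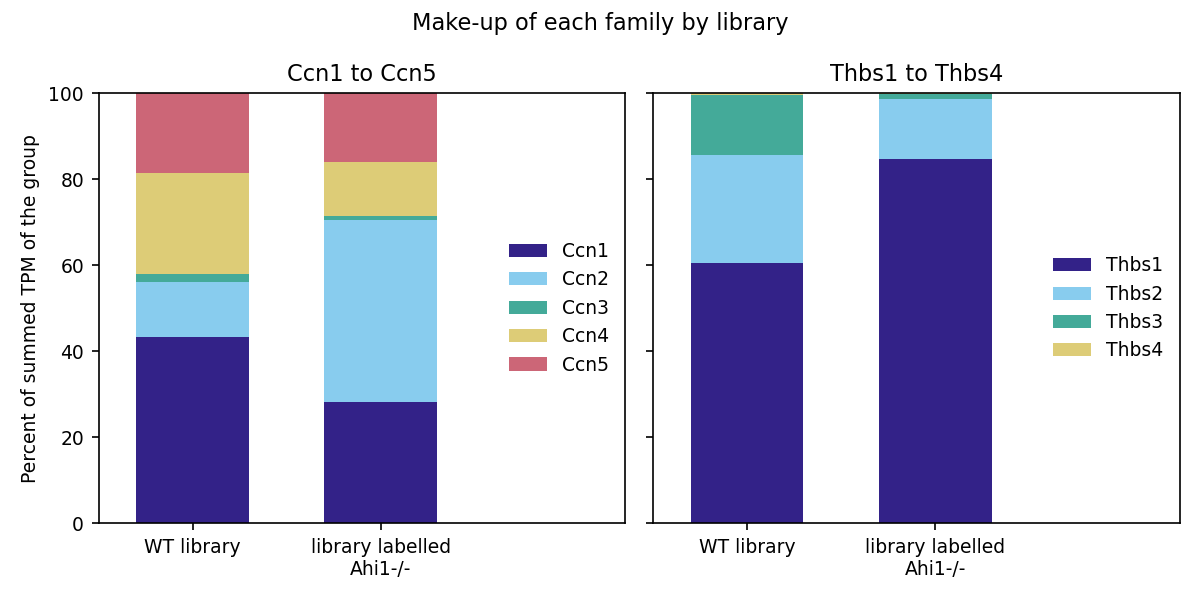
Percent of the summed TPM of Ccn1 to Ccn5 (left) and of Thbs1 to Thbs4 (right) held by each gene, 1 stacked bar per library. The largest CCN segment is Ccn1 in WT (43.2%) and Ccn2 in the library labelled Ahi1-/- (42.2%), and the Thbs1 segment is 60.4% and 84.7%.

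Postn (Entrez gene 50706, chromosome 3) encodes periostin, a fasciclin domain protein of periosteum, ligaments and healing wounds. It had 2782 counts in WT against 56193 in the library labelled Ahi1-/-, or 95.7 and 1985 TPM. The 20.02-fold difference was a log2 ratio of 4.32 (4.27 to 4.38). Postn ranked 1803rd by TPM in WT and 67th in the other library, where it was the second most abundant gene of the list. Thbs1 over Postn on the TPM scale was 1.74 in WT against 1.97 in the library labelled Ahi1-/-, a smaller move than that of Thbs1 over Thbs2 (2.40 and 6.01), though the counting intervals of the ratios of Thbs1 and Postn did not overlap.

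Placed in order, the ratios formed an upper set of Ccn2, Thbs1 and Postn (20.02-fold to 25.2-fold), then Thbs2 and Ccn5, then Ccn1, Thbs4, Ccn3 and Ccn4 (4.13-fold to 5.03-fold), and last Thbs3. Counting intervals of neighbours did not overlap from Ccn2 down to Ccn1, except that the interval of Thbs4 covered the values of Ccn5, Ccn1, Ccn3 and Ccn4. The interval of Ccn3 overlapped those of Ccn1 and Ccn4. Differences between cultures of 1 genotype were not measured and could be larger than these intervals.

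**Figure D3:**
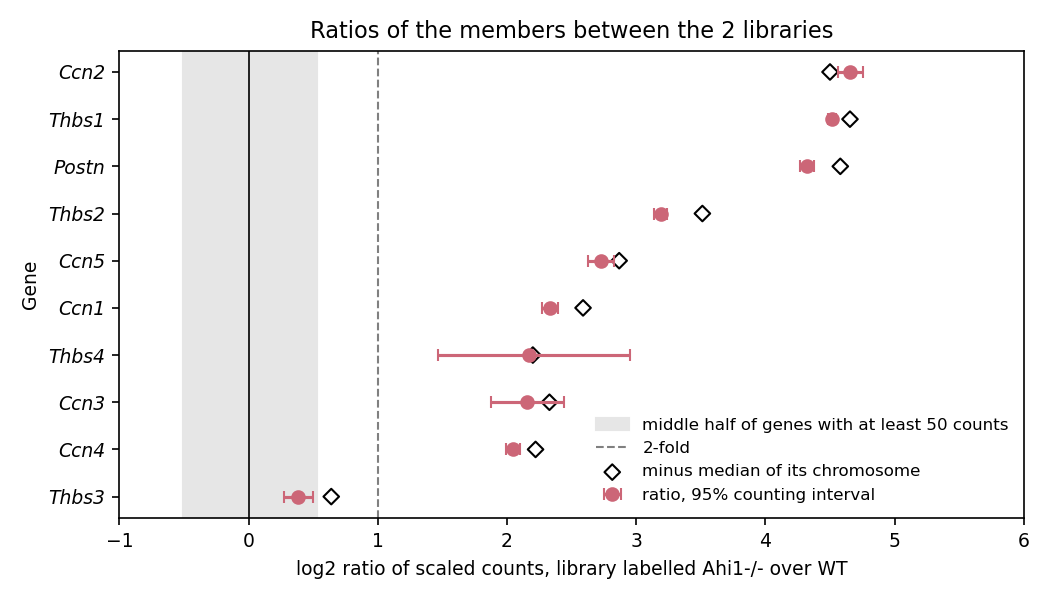
Log2 ratio of scaled counts (library labelled Ahi1-/- over WT, horizontal axis) for each gene, with 95% counting intervals, and the same ratio after subtracting the median of the chromosome (diamonds); the grey band runs from the lower to the upper quartile of 12075 genes (-0.51 to 0.53) and the dashed line is 2-fold. Filled points run from 0.38 for Thbs3, inside the band, to 4.66 for Ccn2.

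In WT the order of levels by TPM was Thbs1, Ccn1, Postn, Ccn4, Thbs2, Ccn5, Ccn2, Thbs3, Ccn3 and Thbs4. In the library labelled Ahi1-/- it was Thbs1, Postn, Ccn2, Ccn1, Thbs2, Ccn5, Ccn4, Thbs3, Ccn3 and Thbs4. Ccn2 moved from the seventh place to the third, Ccn4 from the fourth to the seventh, and 6 genes (Thbs1, Thbs2, Ccn5, Thbs3, Ccn3 and Thbs4) held the same place. The neighbours Ccn4 and Thbs2 in WT (72.1 and 69.2 TPM), Ccn2 and Thbs3 in WT (39.4 and 38.9 TPM), and Ccn1 and Thbs2 in the other library (688 and 652 TPM) were close, and the spread between cultures that would be needed to order them is not known.

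The genes lie on chromosomes 2, 3, 10, 13, 15 and 17, and the genes next to them on the chromosome were read beside them. For each of the 10 genes the 5 nearest genes on either side that met the count minimum were taken, in the order of assembly GRCm38.p6. Of these 100 neighbours 20 were at least 2-fold higher, 15 lower and 65 within 2-fold, while of all 12075 genes 16.0% were higher, 10.3% lower and 73.6% within. The median log2 ratio of the 10 neighbours ran from -0.61 around Thbs4 to 0.24 around Ccn1. Medians of whole chromosomes ran from -0.32 to 0.16 for those that hold a gene of the list, and with these subtracted the ratio of Thbs3 was 0.64 and that of Ccn2 4.50. Ccn2, Thbs3 and Postn each overlap another locus in RefSeq (Gm15270, LOC115489723 and Gm31095). Whether strand was used in counting is not stated in these sources, so reads of these overlapping loci cannot be told apart from those of Ccn2, Thbs3 and Postn.

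RefSeq promoter sequences (assembly GRCm38.p6, matched by Entrez gene) were at hand for Ccn1, Thbs2, Thbs3, Thbs4 and Postn, which has 2 listed starts. Ccn2, Ccn3, Ccn4, Ccn5 and Thbs1 had no entry. The 250 bases before the start are shown for Ccn1, Thbs2, Thbs3 and the downstream start of Postn. Transcripts of Ccn1, Thbs2 and Postn were 5.03-fold, 9.12-fold and 20.02-fold higher, and those of Thbs3 1.30-fold. All 6 windows, with the upstream start of Postn and Thbs4 included, were searched on both strands for 5 patterns. These were GGAATG (bound by TEAD factors), CAGACA (a Smad box with flanking bases), TGANTCA (AP-1), the CArG box of SRF, and TATAAA. Sequences run 5′ to 3′ on the strand of the gene, and capitals mark the matches.
Ccn1 (chr3:145649986-145650235, minus strand): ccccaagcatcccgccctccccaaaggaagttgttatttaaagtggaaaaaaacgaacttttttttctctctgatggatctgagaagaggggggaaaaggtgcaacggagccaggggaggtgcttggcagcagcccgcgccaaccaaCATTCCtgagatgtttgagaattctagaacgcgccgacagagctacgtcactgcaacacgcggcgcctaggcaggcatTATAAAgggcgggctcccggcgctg
Thbs2 (chr17:14694263-14694512, minus strand): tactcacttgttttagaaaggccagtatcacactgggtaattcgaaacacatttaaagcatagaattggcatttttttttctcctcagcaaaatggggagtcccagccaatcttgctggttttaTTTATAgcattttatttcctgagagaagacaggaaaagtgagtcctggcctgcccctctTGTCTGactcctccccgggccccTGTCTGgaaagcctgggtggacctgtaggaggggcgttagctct
Postn, downstream start (chr3:54360857-54361106, plus strand): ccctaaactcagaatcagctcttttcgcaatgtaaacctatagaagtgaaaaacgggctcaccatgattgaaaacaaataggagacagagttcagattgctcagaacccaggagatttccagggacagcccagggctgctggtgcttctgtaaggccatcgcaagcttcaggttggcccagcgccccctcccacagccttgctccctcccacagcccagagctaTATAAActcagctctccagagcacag
Thbs3 (chr3:89214930-89215179, plus strand): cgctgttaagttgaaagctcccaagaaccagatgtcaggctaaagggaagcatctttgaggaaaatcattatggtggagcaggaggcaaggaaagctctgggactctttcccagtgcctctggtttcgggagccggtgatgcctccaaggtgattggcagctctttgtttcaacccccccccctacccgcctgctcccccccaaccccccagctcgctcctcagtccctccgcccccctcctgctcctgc

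Ccn1 held 1 GGAATG match, on the opposite strand at bases -103 to -98 from the start, and TATAAA at -25 to -20. The downstream start of Postn held TATAAA at -26 to -21 and no other match, and its upstream start held none. Thbs2 held CAGACA on the opposite strand at -67 to -62 and again at -44 to -39, and TATAAA on the opposite strand at -126 to -121. Thbs3 held no match to any of the 5 patterns. In Thbs4, which is not printed, GGAATG matched on the opposite strand at -197 to -192 and at -192 to -187, sharing 1 base, and CAGACA at -227 to -222. TGANTCA and the CArG box were in 0 of the 6 windows. Across 32851 RefSeq promoter windows of the same length the share with a match was 12.6% for GGAATG, 17.1% for CAGACA, 6.75% for TGANTCA, 1.47% for the CArG box and 12.4% for TATAAA. A match is a description of letters in this window and not a binding site.

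Genes of the surrounding pathways were taken from lists written with earlier results of these data known. Nothing is therefore read from how their counts differ from those of all genes. A gene was called measured at 10 or more counts over both libraries. The median log2 ratio of all 14485 measured genes was -0.01, and the counts below stand beside 16.0% of genes higher and 10.3% lower at the 50-count minimum. Those shares are of the 12075 genes that met the minimum. The lists also count measured genes under it, which could not be called. Of 20 measured other matricellular and fasciclin genes, 9 were higher and 1 was lower by 2-fold or more in the library labelled Ahi1-/-. Their median was 0.77, or 1.17 with chromosome medians subtracted. Tnc, tenascin C, an anti-adhesive protein of wounds and tendon that binds periostin, had 6437 and 118006 counts (18.2-fold higher). Its relative Tnn (tenascin W) had 64 and 5350 counts (82.8-fold), and Fbln5, an elastic fibre protein, had 546 and 8131 (14.8-fold). Spock3, a testican proteoglycan, had 2 and 55 counts (log2 ratio 4.77, interval 2.85 to 7.85). Tgfbi, the closest relative of Postn and named for its induction by TGF-beta, was the gene that was lower, with 12177 and 2651 counts (4.63-fold). It was singled out after its values were seen.

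Receptors for CCN proteins and thrombospondins were higher in 9 of 21 measured genes and lower in 1, and the median log2 ratio was 0.80. Scaling by total counts left 6 higher, since Itga6, Itgb1 and Notch1 stood just above 2-fold (2.01-fold, 2.07-fold and 2.09-fold). Cd36, a thrombospondin 1 receptor, had 19 and 30 counts (log2 ratio 0.65, interval -0.23 to 1.56). Cd47, the other classical one, had 131 TPM in WT against 96.6 TPM in the library labelled Ahi1-/- (log2 ratio -0.52, interval -0.60 to -0.44). Among the integrin chains, Itga9 was 22.8-fold higher (19 and 438 counts) and Itga4 7.07-fold (73 and 521), while Itga3 was 3.36-fold lower (709 and 213). Lrp1, the endocytic receptor that clears thrombospondins, was 2.61-fold higher (14471 and 38089 counts).

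For the TGF-beta pathway itself, 9 of 17 ligands, latency proteins, receptors and Smads were at least 2-fold higher and 0 were lower, and their median log2 ratio was 1.18. The ligands differed among themselves. Tgfb1 was at 101 TPM in WT against 135 TPM in the library labelled Ahi1-/- (log2 ratio 0.37, interval 0.28 to 0.45). Tgfb2 had 4.66 and 24.97 TPM (5.19-fold higher) and Tgfb3 22.2 and 175 TPM (7.63-fold). The most different were Acvrl1, a receptor of the BMP and TGF-beta group (20 and 769 counts, 38.1-fold), Lrrc32, which holds latent TGF-beta at the cell surface (387 and 14430, 36.95-fold), the co-receptor Eng (60 and 646, 10.7-fold) and the latent TGF-beta binding protein Ltbp2 (1698 and 17640, 10.3-fold). Of 21 measured TGF-beta target genes 14 were higher and 1, Tgfbi, was lower, with a median of 1.98. Tgfb1i1, the adhesion protein Hic-5, was 64.7-fold higher (85 and 5552 counts) and Timp3, a protease inhibitor, 61.9-fold (202 and 12613). Tagln and Acta2, cytoskeletal genes, were 64.2-fold and 16.9-fold higher. Of the 22 genes on this list, 9 are also on another list.

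YAP and TAZ targets other than Ccn1 and Ccn2 were higher in 14 of 24 genes and lower in 1, and the median log2 ratio was 1.21. Igfbp3, which binds insulin-like growth factors, had 440 and 5439 counts (12.3-fold higher). F3, tissue factor, had 599 and 5787 counts (9.57-fold), and Fjx1 had 41 and 282 (6.82-fold). Ccdc80, a matrix protein, had 2233 and 11766 counts (5.22-fold). The gene below was Wwc1 (KIBRA), with 571 and 217 counts (2.66-fold lower).

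Components of the Hippo pathway, which restrains YAP and TAZ, lay closer to even. Of 25 genes 4 were higher and 1 lower, or 16.0% higher, the share of all genes, and the median log2 ratio was 0.16, or 0.04 with scaling by total counts and 0.24 on the TPM scale. Yap1 had 2473 and 4862 counts (log2 ratio 0.96, interval 0.89 to 1.03), so that its interval reached past 2-fold. Wwtr1, which encodes TAZ, had 3552 and 3987 counts (log2 ratio 0.15, interval 0.09 to 0.22). Among DNA-binding partners and cofactors, Vgll3 was 5.09-fold and Tead1 2.91-fold higher. Tead2 (3651 and 2417 counts), Tead3 (1435 and 2335), Tead4 (92 and 76) and Vgll4 (1002 and 662) lay within 2-fold. Of these only Tead3 had a ratio above 1. The kinase gene Lats2 was 2.49-fold and Amotl2 2.37-fold higher, and Wwc1 was the gene that was lower (2.66-fold). These last 3 genes are also on the YAP and TAZ target list.

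Partners of periostin in the matrix were higher in 13 of 14 genes and lower in 0, and the median log2 ratio was 1.94. The gene within 2-fold was Itgb5, an integrin chain of a periostin receptor, with 4921 and 8259 counts. Tnc headed the list, followed by the collagen chains Col1a2 (29308 and 193937 counts, 6.56-fold) and Col5a1 (13322 and 83369, 6.20-fold) and by Ccdc80. Of these 14 genes, 10 are also on another list.

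**Figure D4:**
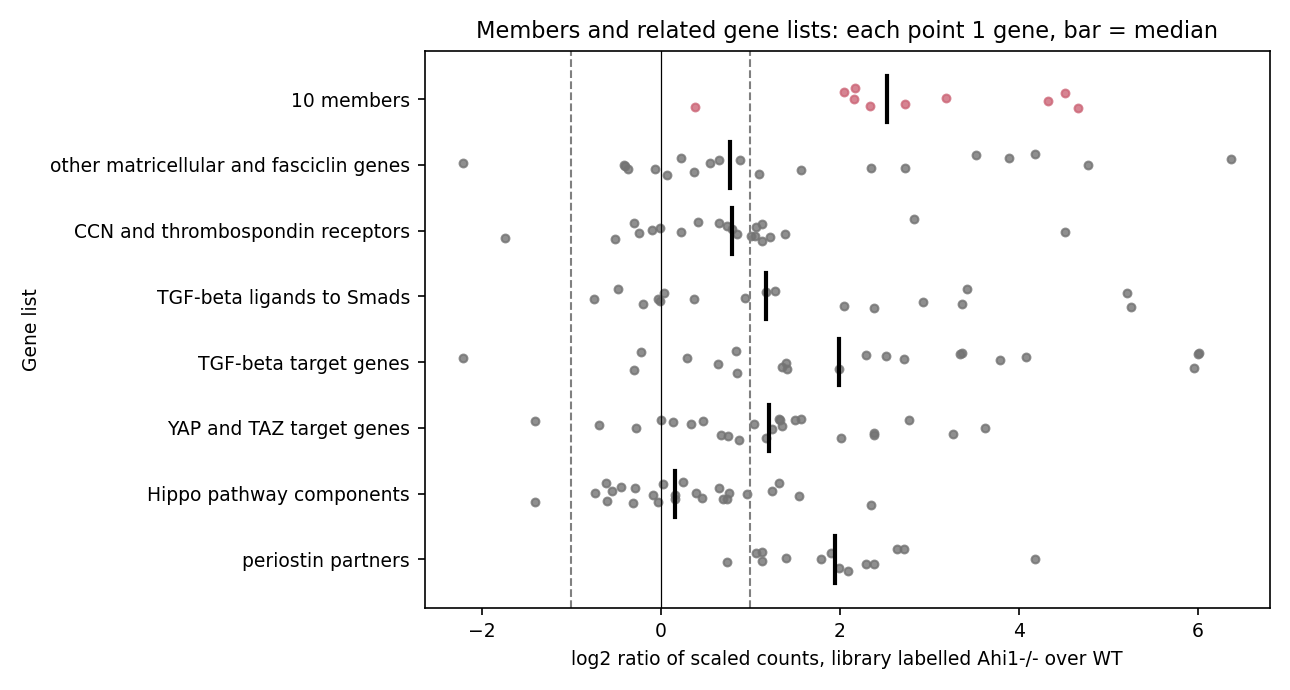
Log2 ratio of scaled counts (horizontal axis) of the 10 genes and of 7 related gene lists, 1 point per measured gene, black bars for medians and dashed lines at 2-fold. Medians run from 0.16 for Hippo pathway components to 1.98 for TGF-beta targets among the lists, and the 10 chosen genes have a median of 2.53.

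Markers of other cell types that make these proteins were read in the same libraries, from lists also written with earlier results known. Platelets are rich in thrombospondin 1, and 1 of 4 measured platelet and megakaryocyte genes was higher and 0 lower, with a summed level of 18.5 TPM in WT against 51.0 TPM in the library labelled Ahi1-/-. Most of the latter was Ppbp, a chemokine gene (15 and 367 counts, 38.8 TPM in the library labelled Ahi1-/-). Most of the WT sum was Gp1bb (230 and 182 counts, 12.1 TPM in WT). Itga2b had 93 and 47 counts (log2 ratio -0.998), and both lay within 2-fold. The defining gene Pf4 had 8 and 4 counts, Gp6 had 0 and 1, and Treml1 had 1 and 0. Endothelial genes, another source of Thbs1, summed to 3.19 and 2.78 TPM, with 0 of 7 measured genes reaching 50 counts and Tie1 at 0 in the library labelled Ahi1-/-. Thbs1 itself stood at 166 and 3919 TPM in these libraries.

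Smooth muscle and pericyte genes were higher in 7 of 11 and lower in 0. Their summed level was 541 TPM in WT against 8562 TPM in the library labelled Ahi1-/-, and only Kcnj8 was at 0 (in WT). Most of both sums was Acta2 (321 and 5510 TPM), and Tagln had 32.5 and 2158 TPM. Acta2 and Tagln are also on the TGF-beta target list. Pdgfrb (6868 and 11687 counts) and Notch3 (636 and 823) lay within 2-fold. Rgs5 (9 and 44 counts) and Kcnj8 (0 and 14) were below the 50-count minimum. Cnn1 was 291-fold and Myh11 33.8-fold higher. Tendon genes, a list that holds Thbs4 and Tnc, were higher in 4 of 7 measured and lower in 1. Without Thbs4 these were 3 of 6 and 1. The list summed to 238 and 2291 TPM, most of it Tnc (105 and 1973 TPM), and without Tnc to 133 and 317 TPM. Kera and Tnmd were at 0 in WT. Tnmd, tenomodulin, had 581 counts in the other library, at least 192-fold higher against a floor of 3 counts. Scx, the tendon transcription factor, was 2.22-fold lower (238 and 108 counts). The part of these cell types in the ratios of Thbs1, Thbs2, Thbs4 and Postn was not tested.

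The remaining marker lists were small in level. Bone genes summed to 50.6 TPM in WT against 32.8 TPM in the library labelled Ahi1-/-, with 1 of 7 measured genes higher and 4 lower. The lower genes were Ibsp (296 and 8 counts), Dmp1 (87 and 3), Phex (98 and 6) and Alpl (152 and 66). Sp7 was the higher one (35 and 134), and Postn, also made by periosteum, was 20.02-fold higher. Skeletal muscle genes summed to 3.73 and 46.9 TPM with 1 of 2 measured genes higher (Des, 14.6-fold, which smooth muscle also makes) and Myh3 at 0 in WT. Leukocyte genes summed to 23.9 and 46.9 TPM with 1 of 9 higher (Lyz2). Epithelial genes summed to 16.8 and 39.8 TPM with 4 of 5 higher and Krt5 at 0 in WT. Neural and glial genes summed to 29.0 and 100.5 TPM, most of it Tubb3 (27.1 and 85.3 TPM). Of 6 measured genes 2 were higher, Tubb3 and Stmn2 (1 and 197 counts). Elavl4 and Sox10 were at 0 in WT and under the 50-count minimum in the other library (20 and 30 counts). In these 4 lists 0 genes were lower.

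A second table of the authors gives FPKM (fragments scaled to transcript length and library size) for 3872 genes, and those above 0 in both libraries were all at least 2-fold apart on that scale. It lists 9 of the 10 genes, and the gene it does not list is Thbs3. Its values were 81.6 and 1721 FPKM for Thbs1 and 47.0 and 872 FPKM for Postn. The log2 ratios of FPKM were 4.54 for Ccn2, 4.40 for Thbs1 and 4.21 for Postn. Over the 9 genes they lay between 0.10 and 0.12 below the ratios of scaled counts. For Ccn4 this took the log2 ratio from 2.04 to 1.92, which is below 4-fold.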

How the data were processed

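The members and the gene lists were chosen with earlier results of these data known. Per the file headers, the authors deposited expected counts (headed read counts) and TPM for 17260 mRNA genes, and FPKM for 3872 genes in a second table. Tools listed in the submitters' processing notes, without roles, are RSEM 1.2.12, HISAT2 2.0.4 and Bowtie2 2.2.5, and the build is mm8. Annotation, strand and filters are not stated there. All 6 columns of values were used.

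Expected counts, of which 65.1% (WT) and 64.4% were whole, were rounded and scaled with TMM (edgeR 4.0.16, R 4.3.3). Ratios carry exact 95% Clopper-Pearson intervals for the share of both counts falling in 1 library. A library at 0 was set to 3 counts and its ratio given as "at least". Higher or lower means 2-fold or more with 50 or more counts in whichever library was higher. The calculation was tested on simulated data that held counting error only, so that test does not cover spread between cultures. Python 3.11.15, numpy 2.4.6, pandas 2.3.3, scipy 1.17.1 and matplotlib 3.10.9 were used. Named genes are all members, the relatives and ligands fixed by name, and genes picked by rule from each list. The rule took up to 4 called genes of largest absolute log2 ratio, or the 2 with most counts where none was called. From the pathway lists all of these are named, and from the marker lists only some. Other named genes were picked after their values were seen. They are Tgfbi, Itgb5, Itga6, Itgb1, Notch1, Amotl2, Tead2, Tead3, Tead4, Vgll4 and the marker genes given outside that rule. Chromosomes and gene order came from RefSeq GRCm38.p6, in which 17210 gene identifiers were found; as the build differs from mm8, the only coordinates printed are those of RefSeq promoters. Alternatives changed the scaling, chromosome correction, unit, minimum count and fold. Of the genes in the marker lists, 1 was left out and is not reported here.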

Additional observations from a re-analysis of the deposited data

How the results depend on the processing

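No paired analysis was possible because each genotype had 1 library, and for the same reason no library could be left out. Under the 11 alternatives of scaling, chromosome correction, unit, minimum count and fold, the number of members called higher stayed at 9, except with a minimum of 200 counts, where it was 8 because Thbs4 drops out, and the number called lower stayed at 0. At 4-fold it was also 9. Ratios of single members moved with the scaling by -0.11 (total counts) to 0.05 (upper quartile) on the log2 scale, and by -0.16 to 0.32 with chromosome medians subtracted. Thbs3 ranged from 0.27 to 0.64 and Thbs1 from 4.40 to 4.65. Ccn4 ranged from 1.92 to 2.22 and so fell on either side of 4-fold. The medians of the 9 pathway lists kept their sign in all 72 recomputations, but that of Hippo components ran from 0.04 (total counts) to 0.24 (TPM) and that of other matricellular genes from 0.65 (total counts) to 1.17 (chromosome medians subtracted). Receptors called higher ran from 6 (total counts) to 10 (chromosome medians subtracted). On counts in place of TPM, the shares of Thbs3 and Thbs4 were over 1.5 times lower. CCN shares moved as well. That of Ccn4 went from 23.6% to 43.3% in WT and from 12.6% to 25.1% in the library labelled Ahi1-/-. That of Ccn5 went from 18.4% to 11.7% and from 15.9% to 10.9%. Ccn1 held 32.0% and 22.7% of the CCN counts, so Ccn4 was above Ccn1 in both libraries on that scale. The background of all genes moved most. Genes called higher (1934) numbered 1266 with a minimum of 200 counts, 3047 with no minimum and 1078 at 4-fold. Genes called lower (1249) numbered 1918 with no minimum, 2606 at 1.5-fold and 299 at 4-fold. Depth limits Thbs4 most among the members (interval 1.46 to 2.95). The spread between cultures was not measured.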
